A study of Homo sapiens with 6 samples.

Results

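The high mobility group (HMG) genes described here encode small, abundant chromatin proteins. HMGB1, HMGB2, HMGB3, HMGA1, HMGA2 and HMGN1 to HMGN5 were taken by their gene symbols from a table of 62492 genes, which gave 10 members. They were chosen with the difference between siNONO and siControl libraries already known, so the differences of the members are given as a description, with their errors, and no test is read for them. HMGB proteins carry HMG boxes, which bind the minor groove and bend DNA, and an acidic tail. HMGA proteins bind AT-rich DNA through AT hooks, and HMGN proteins bind nucleosomes and compete with linker histone H1. HMGA2 is a textbook target of the let-7 microRNAs, and HMGB2 is known to be transcribed mainly in dividing cells.

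RNA was measured in HCT116, a human colorectal carcinoma line grown in DMEM with fetal bovine serum. The siControl group held 3 libraries with the genotype label WT. The siNONO group held 3 libraries with the genotype label NONO knockdown, NONO being a nuclear RNA- and DNA-binding protein of paraspeckles. Both groups received siRNA at 20 nM with Lipofectamine RNAiMAX, and each group has Sets 1, 2 and 3. A single siNONO duplex is given in the methods, so loss of NONO and other actions of that duplex cannot be told apart. Nothing in the labels says that the Sets were separate cultures, so errors measure only the spread between these libraries.

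Total estimated counts per library ranged from 21765393 to 32659002. NONO fell to 18.9% of its siControl level in the fit (log2 fold change -2.40, SE 0.034, lower in 3 of 3 Sets). Among the epithelial markers, 7 of 9 reached at least 1 TPM, a transcript abundance scaled for length and depth, in every library, VIL1 stayed at or below 0.17 TPM and CDX1 was listed at 0.0 TPM. Of the markers of other cell types, 3 of 7 matched genes were above 1 TPM in every library (COL1A1, ACTA2 and CD68), and COL1A2 was listed at 0.0 TPM. Their summed level was 24.8 to 30.9 TPM in siControl and 34.6 to 37.6 TPM in siNONO, and its part in the results was not tested.

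The HMGB messages end their coding part in a run of codons that begin with GA, each of which encodes aspartate or glutamate, and this run spells the acidic tail. It is shown because it sets the HMGB genes apart from the other members at the level of sequence. The canonical transcripts of GENCODE version 44 on GRCh37 gave a terminal run of 30 codons in HMGB1, 22 in HMGB2 and 20 in HMGB3. HMGA2 had a run of 3 codons and the remaining members had 0 or 1. The last 7 codons before the run and the stop codon are in lower case, and the run is in capitals, 5′ to 3′.
HMGB1: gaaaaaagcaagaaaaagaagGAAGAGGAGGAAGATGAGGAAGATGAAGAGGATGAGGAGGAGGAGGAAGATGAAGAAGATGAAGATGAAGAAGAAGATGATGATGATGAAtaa
HMGB2: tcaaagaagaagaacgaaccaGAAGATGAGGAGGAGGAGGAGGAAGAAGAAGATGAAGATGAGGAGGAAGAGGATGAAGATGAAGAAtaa
HMGB3: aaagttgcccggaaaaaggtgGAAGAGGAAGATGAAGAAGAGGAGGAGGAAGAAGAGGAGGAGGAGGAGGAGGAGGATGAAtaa
Over the aligned bases of the coding parts, HMGB1 was 77.7% identical to HMGB2 and 74.8% identical to HMGB3. HMGA1 and HMGA2 were 68.3% identical, and HMGN2 and HMGN4 were 86.4% identical.

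In siControl cells HMGA1 was the highest member at 1026 ± 84.0 TPM (SD, n = 3), followed by HMGB1 at 794 ± 30.7 TPM. HMGN1 at 362 ± 33.0 TPM and HMGB2 at 350.2 ± 18.1 TPM came next, and these neighbours did not differ beyond their spread. HMGN2 followed at 268 ± 8.09 TPM, HMGA2 at 143 ± 3.71 TPM and HMGB3 at 115 ± 3.55 TPM. HMGN3 at 88.7 ± 7.89 TPM, HMGN4 at 53.7 ± 2.67 TPM and HMGN5 at 20.6 ± 4.87 TPM closed the order. Apart from HMGN1 and HMGB2, the ranges of neighbouring members did not overlap. In siNONO cells HMGB2 moved from place 4 to 6, HMGN2 from 5 to 4 and HMGA2 from 6 to 5. HMGB3 moved from place 7 to 8 and HMGN3 from 8 to 7, but their siNONO ranges overlapped. HMGA1, HMGB1 and HMGN1 held places 1, 2 and 3 in both groups.

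**Figure D1:**
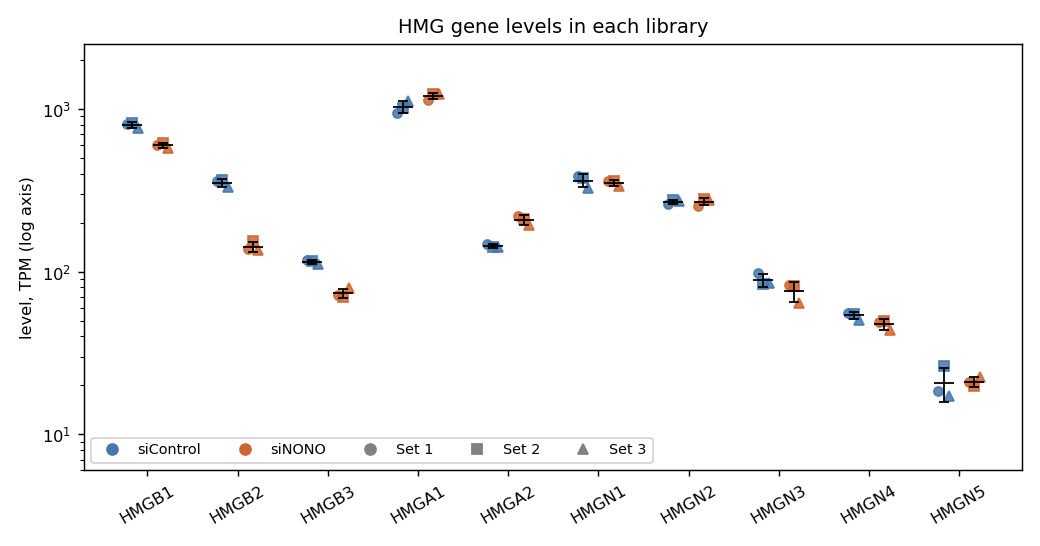
Level of each HMG gene in TPM on a log axis, with siControl libraries in blue and siNONO libraries in orange, and a marker shape for each Set. Black bars give the mean ± SD of 3 libraries. The siNONO points of HMGB1, HMGB2 and HMGB3 lie below all siControl points, and those of HMGA1 and HMGA2 lie above them. The share of all genes with such a separation was not counted.

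Transcriptome-wide, the quasi-likelihood test of edgeR, blocked by Set and adjusted by the Benjamini-Hochberg method, called 46.6% of 17000 genes at an adjusted p of at most 0.05. The call was higher in siNONO for 23.2% and lower for 23.4%. The median log2 fold change over all genes tested was -0.0048. All 10 members passed the filter on low counts. Of them 3 were called higher, 3 were called lower and 4 were not called, and nothing is read from these counts, since the members were chosen on this contrast. The call of higher for HMGN2 was kept in only 7 of the 16 alternative settings. The share of all genes whose siControl and siNONO libraries do not overlap in level was not counted. Nothing is therefore read from a lack of overlap where it is stated for a member or a subfamily.

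HMGB1 is the most abundant of the HMGB proteins, an architectural factor in the nucleus and an alarm signal when released. HMGB1 lies at chr13:31030841-31191734 on the minus strand of GRCh37, with 5 exons in its canonical transcript. Its level was 810, 812 and 758 TPM in siControl Sets 1, 2 and 3, and 596, 620.0 and 578 TPM in siNONO Sets 1, 2 and 3. Every siNONO library was below every siControl library. The log2 fold change from counts was -0.34 (SE 0.029), and the ratios within Sets were -0.34, -0.30 and -0.38 on the log2 scale. In this fit on counts HMGB1 was at 79.1% of its siControl level.

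HMGB1 has many processed pseudogenes, and some of its reads cannot be placed uniquely. Of the 75-base stretches of its canonical transcript, 12.4% also occurred in transcripts of other genes. That transcript has 5456 bases, while the mean length that RSEM weighted by abundance was 1227 to 1342 bases per library. The share in the transcripts counted may therefore differ. Rows named as HMGB1 pseudogenes numbered 48 and held 11.8% to 14.4% of the reads summed with HMGB1. With those rows added in, the log2 fold change was -0.33.

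HMGB2 resembles HMGB1 in its boxes and is linked to proliferating cells. The gene spans chr4:174252527-174255583 on the minus strand of GRCh37, with 5 exons. Its siControl libraries held 358, 363 and 329 TPM, and its siNONO libraries held 137, 154 and 135 TPM. The groups did not overlap, and the highest siNONO library lay far below the lowest siControl library. HMGB2 had the lowest log2 fold change of the members, -1.21 (SE 0.036), with -1.30, -1.16 and -1.16 within Sets 1, 2 and 3. In the fit on counts the siNONO level was 43.3% of the siControl level, a 2.31-fold lower value. Among all 17000 genes tested HMGB2 stood at rank 129 from the lowest log2 fold change.

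HMGB2 belongs to the G2/M gene list distributed with Seurat, a list of genes whose RNA is high late in the cell cycle. Without HMGB2, 50 of the 53 genes of that list tested were called lower and 0 higher, with a median log2 fold change of -0.65. No gene of it was higher at an unadjusted p under 0.05 either, in edgeR, DESeq2 or limma. Within the 54 genes that include it, HMGB2 had rank 2 from the lowest, next to ANLN at -1.25, the gene of a cytokinesis scaffold. Of the 43 S-phase genes tested, 39 were called lower and 0 higher, with a median of -0.47 and again 0 higher at an unadjusted p under 0.05 in these 3 tools. In bulk RNA, fewer cells in a phase and less RNA per cell cannot be told apart. The part of cell-cycle phase in the level of HMGB2 was not tested.

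HMGB3, an X-linked paralogue studied mostly in blood stem cells, lies at chrX:150148982-150159244 on the plus strand of GRCh37. Its level was 118, 115 and 111 TPM in siControl and 71.7, 70.2 and 79.3 TPM in siNONO. The groups did not overlap. The log2 fold change from counts was -0.48 (SE 0.035), with -0.52, -0.49 and -0.43 within the Sets. In this fit the siNONO level was 71.8% of the siControl level. The mean transcript length that RSEM weighted by abundance was 1598, 1571 and 1552 bases for HMGB3 in siControl, and 1710, 1710 and 1516 bases in siNONO, so the groups overlapped in length.

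The HMGB1 to HMGB2 ratio in TPM moved with the unequal decreases. It was 2.27 ± 0.031 (SD, n = 3) in siControl and 4.22 ± 0.18 in siNONO. Within each library HMGB1 therefore stood further above HMGB2 after siNONO.

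**Figure D2:**
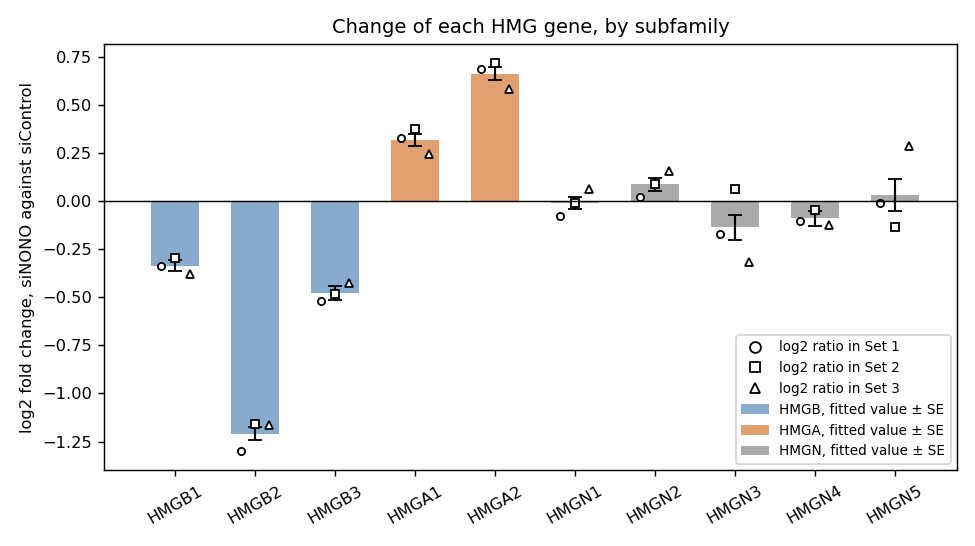
Log2 fold change of each HMG gene in siNONO against siControl, fitted on counts with the Set as a block, as bars with SE, coloured by subfamily. Open markers give the log2 ratio within each Set. The HMGB bars run from -0.34 to -1.21, the HMGA bars stand at 0.32 and 0.66, and the HMGN bars lie between -0.14 and 0.09.

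Promoters of the HMGB genes are shown because CCAAT boxes, bound by the factor NF-Y, are frequent in promoters of genes expressed in dividing cells. The RefSeq promoter table on GRCh38.p14 matched 8 of the 10 members with 12 promoters, HMGB2 and HMGA2 not being matched. In the 250 bases before the start, both strands were searched for CCAAT, the letters of the CCAAT box. The 2 promoters with the most hits held 3 each and belonged to HMGB1 and HMGB3. At least 3 CCAAT boxes were found in 2.93% of 35116 promoters in the table, and at least 1 in 32.0%. The boxes are in capitals, with the HMGB1 promoter from chr13:30465937-30466186, minus strand, and the HMGB3 promoter from chrX:150983085-150983334, plus strand.
HMGB1 promoter: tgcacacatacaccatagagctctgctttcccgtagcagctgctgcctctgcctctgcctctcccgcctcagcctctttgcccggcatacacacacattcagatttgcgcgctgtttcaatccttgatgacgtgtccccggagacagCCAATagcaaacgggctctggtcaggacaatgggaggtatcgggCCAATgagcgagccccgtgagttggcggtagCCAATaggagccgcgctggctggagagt
HMGB3 promoter: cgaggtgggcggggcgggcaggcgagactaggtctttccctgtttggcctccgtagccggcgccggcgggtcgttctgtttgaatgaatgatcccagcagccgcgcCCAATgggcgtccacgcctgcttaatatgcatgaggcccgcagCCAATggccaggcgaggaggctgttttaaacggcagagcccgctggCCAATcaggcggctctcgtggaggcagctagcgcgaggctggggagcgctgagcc
In HMGB1 the boxes began 103, 59 and 28 bases before the start, and in HMGB3 they began 144, 101 and 55 bases before it. The HMGB3 promoter also held TTTGAA, the letters of a CHR element of cell-cycle genes, which was present in 13.3% of all promoters, searched on both strands. Another HMGB1 promoter, at chr13:30465241-30465490, held TTTGAA and 1 CCAAT box. The remaining HMGB1 promoter and the other HMGB3 promoter held 0 of either. HMGN1 and HMGN3 each had 2 CCAAT boxes, HMGN2 had 1, and HMGA1 had 0 and 1 in its 2 promoters. HMGN4 and HMGN5 had 0.

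Other genes with at least 3 CCAAT boxes in a promoter were counted after the values of the members had been seen. Of 622 such genes tested, 144 were called higher (23.2%) and 225 lower (36.2%), with a median log2 fold change of -0.058. With limma on log2(TPM + 1), 56 of them were called higher, where 1643 of all 17000 genes tested were called higher. The median of these CCAAT genes was there -0.13, and that of all genes was -0.071. Over all 11661 tested genes with a promoter in the table and outside the members, 26.0% were called higher and 26.3% lower. These shares are descriptions of gene lists and say nothing about binding of a factor.

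HMGA1, an architectural protein with AT hooks that is abundant in many carcinomas, lies at chr6:34204650-34214008 on the plus strand of GRCh37. It was measured at 948, 1015 and 1115 TPM in siControl and at 1138, 1228 and 1236 TPM in siNONO. The lowest siNONO library was just above the highest siControl library. The log2 fold change was 0.32 (SE 0.030), and the Sets gave 0.33, 0.38 and 0.24. In the fit on counts HMGA1 thus stood at 124% of its siControl level.

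HMGA2 is mostly fetal in normal tissue and is re-expressed in tumours. It spans chr12:66218240-66360071 on the plus strand of GRCh37. Its level was 147, 141 and 142 TPM in siControl and 219, 212 and 193 TPM in siNONO. The siNONO libraries were all above the siControl libraries. HMGA2 had the highest log2 fold change of the members, 0.66 (SE 0.032), with 0.68, 0.71 and 0.58 within the Sets. This was a level of 158% of siControl in the fit on counts. The gene stood at percentile 95.3 of log2 fold change among all genes tested. The HMGA1 to HMGA2 ratio in TPM was 7.17 ± 0.73 (SD, n = 3) in siControl and 5.80 ± 0.60 in siNONO.

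Exact let-7 seed matches of the HMGA messages are shown because the seed match is the best known regulatory element of HMGA2. RefSeq mature sequences of 9 members of the let-7 family, miR-98 included, all carried the seed GAGGUAG at bases 2 to 8. It is in capitals in 3 of them.
let-7a-5p: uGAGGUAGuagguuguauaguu
let-7e-5p: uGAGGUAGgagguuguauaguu
miR-98-5p: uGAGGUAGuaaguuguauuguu
The 7 bases that pair with this seed, CTACCTC, were searched on the transcript strand of the canonical 3′ UTRs. HMGA2 held 4 such sites, HMGA1 held 1 and the 8 other members held 0. Shorter or imperfect matches and other transcripts were not searched, so this is not a full list of let-7 sites. Each site is printed in capitals with its neighbouring bases, in the order of the UTR.
HMGA2, chr12:66357085-66357107: ttcgatttCTACCTCagcagcag
HMGA2, chr12:66358320-66358342: actcaataCTACCTCtgaatgtt
HMGA2, chr12:66358732-66358754: gcaaagacCTACCTCcagacttc
HMGA2, chr12:66359585-66359607: acacactaCTACCTCttaagtcc
HMGA1, chr6:34213613-34213635: ttcacaaaCTACCTCtggacagt
These coordinates are on the plus strand of GRCh37. Among 19388 coding genes, 9.79% held at least 1 such site, and 12 genes held at least 4.

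The genes that share these letters with HMGA2 were listed after its value was known. Of the 11 other genes with at least 4 sites, 10 were tested, of which 0 were called higher and 4 lower, with a median log2 fold change of -0.18. None of the 10 was higher at an unadjusted p under 0.05 in edgeR, DESeq2 or limma. Without a library of Set 1 from either group, 2 were called lower. SMC1A, a cohesin subunit, was called lower at -0.30 (SE 0.032). LIN28B, which blocks let-7 maturation, was at -0.97 (SE 0.41) and was not called. With at least 1 site and outside the members, 1504 genes were tested, of which 27.4% were called higher and 27.2% lower. The shares over all 13457 tested coding genes outside the members were 27.2% higher and 26.8% lower. Levels of let-7 itself were not analysed here.

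Matches to the seeds of the siNONO duplex were searched in the same UTRs, since short matches can lower a message. The match to the antisense strand, AAAGCTC, occurred once in HMGN4 and in no other member, against 10.4% of coding genes. The match to the sense strand, TGGCTTC, occurred once in HMGA1 and in no other member, against 15.6% of coding genes. The 3′ UTRs of HMGB1, HMGB2, HMGB3 and HMGA2 held neither.

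HMGN1 and HMGN2, the major nucleosome-binding members, kept close to their siControl levels. HMGN1 was at 387, 376 and 325 TPM in siControl and at 360, 360 and 333 TPM in siNONO, and the groups overlapped. Its log2 fold change was -0.01 (SE 0.033), and its Sets went in different directions. HMGN2 was at 259, 275 and 271 TPM in siControl and at 254, 278 and 275 TPM in siNONO, again with overlap. Its log2 fold change from counts was 0.09 (SE 0.033), with 0.02, 0.09 and 0.16 within the Sets.

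HMGN3, known from eye and endocrine tissue, was at 97.7, 83.4 and 84.9 TPM in siControl and at 82.3, 81.7 and 63.8 TPM in siNONO. The groups did not overlap in TPM but overlapped in CPM, counts scaled to the library size as adjusted in the fit. The log2 fold change was -0.14 (SE 0.064), with a positive ratio in Set 2 and negative ratios in Sets 1 and 3. With each library left out in turn, the value for HMGN3 lay between -0.24 and -0.06.

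HMGN4, a close relative of HMGN2, was at 55.6, 54.8 and 50.7 TPM in siControl and at 48.9, 49.9 and 43.5 TPM in siNONO. Here too the groups were apart in TPM and overlapped in CPM, and the log2 fold change was -0.09 (SE 0.039). HMGN5, which has a long acidic C-terminal part, was the lowest member at 18.5, 26.2 and 17.2 TPM in siControl and 21.0, 19.7 and 22.5 TPM in siNONO. Its log2 fold change was 0.03 (SE 0.083), the least precise of the 10, and its groups overlapped. The HMGN genes lie at chr21:40714241-40721573 (HMGN1), chr1:26798931-26803133 (HMGN2), chr6:79910962-79944406 (HMGN3), chr6:26538594-26547161 (HMGN4) and chrX:80369198-80457412 (HMGN5) of GRCh37.

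Summed by subfamily, the HMGB genes held 1258 ± 52.1 TPM in siControl and 814 ± 27.3 TPM in siNONO (SD, n = 3). The HMGA genes held 1169 ± 81.3 TPM in siControl and 1408 ± 45.0 TPM in siNONO. Neither pair of groups overlapped. The HMGN genes held 794 ± 39.5 and 764 ± 25.1 TPM, and these groups overlapped. Per library the HMGA to HMGB ratio was 0.852, 0.895 and 1.05 in siControl and 1.69, 1.70 and 1.80 in siNONO. HMGB messages thus made up more of the pool than HMGA messages in siControl Sets 1 and 2, and less in every siNONO library. All 10 members together held 3221 ± 34.3 TPM in siControl and 2986 ± 76.4 TPM in siNONO. On log2(TPM + 1) the median of all genes was itself -0.071, against -0.0048 in the fit on counts, so TPM sums carry a general offset. The median of the members in the fit on counts was -0.05.

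**Figure D3:**
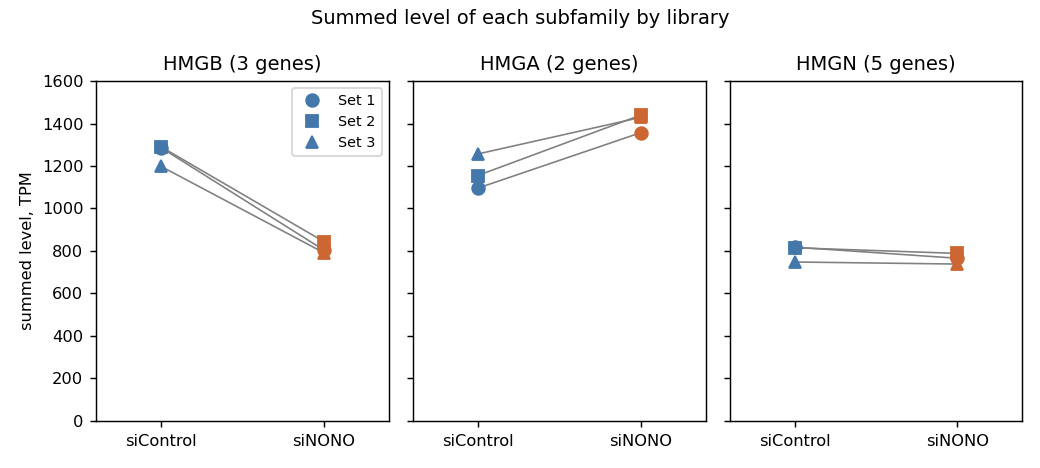
Summed level in TPM of the 3 HMGB, 2 HMGA and 5 HMGN genes in each library, with grey lines joining the siControl and siNONO libraries of a Set. The HMGB sum was lower and the HMGA sum higher in siNONO in every Set, and the HMGN ranges of the groups overlapped.

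Other genes of HMG-box proteins were taken as a list of 22, of which 19 were tested. Of these 4 were called higher and 12 lower, with a median log2 fold change of -0.17, which was -0.11 without siControl Set 2 and -0.12 without siNONO Set 2. Lowest was WDHD1, a replication factor, at -0.71 (SE 0.047). NSD2, a histone H3 methyltransferase, was called lower at -0.49 (SE 0.029) and HMG20B, a subunit of the LSD1-CoREST complex, at -0.38 (SE 0.033). SSRP1, the HMG-box subunit of the FACT histone chaperone, was called lower at -0.22 (SE 0.030). HBP1, a repressor linked to cell-cycle exit, was the highest at 0.33 (SE 0.053), followed by HMGXB3 at 0.20 (SE 0.035). PMS1 and KMT2C were also called higher, but neither was when a library of Set 1 or Set 2 was left out, which gave 2 genes called higher. HMGB4, the testis member of the HMGB genes, had 0 counts in all 6 libraries, and a count of 0 allows up to 3 counts per library, for counting error only.

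SOX and TCF/LEF genes, whose HMG box reads a DNA sequence, gave 13 tested of 20 listed. Of these 4 were called higher and 4 lower, with a median of -0.21 that was 0.04 without siControl Set 1 and 0.03 without siNONO Set 1. SOX6, at low counts, was called lower at -1.32 (SE 0.39) but not without a library of Set 3. SOX4 was called lower at -0.52 (SE 0.035) and TCF7L2, the main WNT effector of gut epithelium, at -0.34 (SE 0.040). TCF7 was called higher at 0.28 (SE 0.049) and SOX9 at 0.17 (SE 0.034).

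Linker histone genes, which HMGN proteins are known to counteract, gave 3 tested of 7. H1-10 was called lower at -0.34 (SE 0.064), and H1-2 stood at 0.01 (SE 0.11), not called. In the SET complex, where HMGB2 is a known partner, 2 of 5 genes tested were called higher and 1 lower. SET was called lower at -0.31 (SE 0.028). NME1 was called higher at 0.30 (SE 0.033), and APEX1 at 0.10 (SE 0.031) was not called when a library of Set 1 was left out, which gave 1 gene called higher.

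Receptor and ligand genes of extracellular HMGB1 were mostly silent in these libraries. Of 12 listed, 11 were matched and 5 tested, 1 being called higher and 1 lower. MYD88, the adaptor of Toll-like receptors, was called higher at 1.07 (SE 0.044). AGER, the gene of the receptor RAGE, was at -0.35 (SE 0.13), and it was not called when any of the 6 libraries was left out. Without a library of Set 2 or Set 3, edgeR called 0 genes of this list lower, with 0 to 2 lower at an unadjusted p under 0.05. TLR2, a receptor, and CXCL12, a chemokine that binds HMGB1, had 0 counts in all 6 libraries.

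Among 8 genes around LIN28 and let-7, 2 were called higher and 1 lower, with a median of -0.0086 that took either sign as libraries were left out, from -0.09 to 0.04. IGF2BP2, an RNA-binding protein whose gene is regulated by HMGA2 in muscle and embryo, was called higher at 0.21 (SE 0.033). IGF2BP3 was at 0.11 (SE 0.035) and was not called without a library of Set 1 or Set 2, which gave 1 gene called higher. TUT4, a terminal uridylyltransferase that marks let-7 precursors, was called lower at -0.21 (SE 0.038).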

How the data were processed

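RNA of 6 HCT116 libraries, 3 siControl and 3 siNONO, was prepared with a stranded mRNA kit. Per the methods, the authors used sickle for trimming, STAR for alignment and RSEM 1.3.1 for counting on GRCh37 with GENCODE genes. They deposited for each library and gene an estimated count, TPM, FPKM and the gene's length and effective length in bases. Whether counting used strand is not given in the sources used here. Ensembl IDs were matched to symbols for 62211 of 62492 genes. Members and gene lists were chosen with earlier results of these data known.

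Estimated counts were rounded to whole numbers, filtered with filterByExpr, scaled by TMM and fitted in edgeR 4.0.16 (R 4.3.3), using the quasi-likelihood test in its edgeR 3 form with the Set as a block, as the study used edgeR with batch covariates. P-values were adjusted over 17000 genes. The biological coefficient of variation was 3.51%. The Set numbers were taken to pair the libraries because deviations of same-numbered libraries from their group means correlated at 0.200, 0.112 and 0.310 over 13282 genes. Unmatched libraries of Sets 1 and 2 correlated at 0.096 and 0.094, close to the matched value of Set 2. Unmatched pairs with a Set 3 library lay between -0.238 and -0.154. These values thus set Set 3 apart more clearly than they separate Sets 1 and 2. Levels are TPM, with the SD over 3 libraries. Levels given as a percentage of siControl come from the log2 fold change fitted on counts, not from TPM. The fit was run on simulated data with 89 genes changed by 0.5 and 111 changed by 1 on the log2 scale. Of these 75.3% and 91.0% were recovered, and 4 unchanged genes were called. The simulation gave all genes the same dispersion and no Set effect, so it does not measure recovery in these data. FPKM entered only a check of the order of levels.

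The genes named were all members, NONO, the extremes of each list, member pseudogenes with at least 10 counts on average, and the 3 genes most correlated with the lowest and the highest member. Some genes that this rule names are not reported here. The Seurat 5.3.0 cell-cycle lists were used. Alternatives were other size factors, other filters, no block, the edgeR 4 form, robust dispersions, DESeq2 1.42.0, limma 3.58.1 on log2(TPM + 1), pseudogenes summed with members, and each library left out. RefSeq promoters and mature miRNAs, and GENCODE version 44 transcripts, gave the sequences. Gene lists defined by a sequence feature were added after the values had been seen.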

Additional observations from a re-analysis of the deposited data

How the results depend on the processing

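The 16 alternative settings gave 1233 values beside the 78 results, of which 1096 kept their direction and side of the threshold or moved little. For the members, whose values are a description, HMGB2 ranged from -1.30 to -1.16 and HMGA2 from 0.53 to 0.70 on the log2 scale. With limma on log2(TPM + 1), where the median of all genes was -0.071, HMGB1 was at -0.41, HMGB2 at -1.30 and HMGB3 at -0.63. HMGA1 was there at 0.23 and HMGA2 at 0.53. HMGN1 and HMGN5 took either sign among settings. The order of levels in siControl was the same with FPKM and with effective-length CPM. Within a library both are proportional to TPM, so this order could hardly differ and nothing is read from it.

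Without the replicate block 6164 genes were called, against 7924 with it, and 6147 were shared. There the other HMG-box genes called higher were 2, SET complex genes higher 1, LIN28 and let-7 genes higher 1, and HMGB1 receptor genes lower 0. The same counts, 2, 1, 1 and 0, came from DESeq2, which called 2612 genes higher and 2615 lower, with 2 SOX and TCF/LEF genes higher and 2 lower. With limma on log2(TPM + 1), 1643 genes were called higher, and the counts were 0 other HMG-box genes higher, 1 SET complex gene higher, 1 LIN28 and let-7 gene higher, 0 HMGB1 receptor genes lower, and 0 SOX and TCF/LEF genes higher and 2 lower. KMT2C there was at -0.14 and not called, where the median of all genes was -0.071. HMGB1 receptor genes called lower were 2 with no filter and with the edgeR 4 form. At an unadjusted p under 0.05, limma had 0 other HMG-box and 2 SOX and TCF/LEF genes higher and 1 HMGB1 receptor gene lower, DESeq2 had 0 HMGB1 receptor genes lower, and the fit without the block had 1. The cause was not tested. With each library left out in turn, genes called higher ranged from 3254 to 3858 and lower from 3106 to 3795, the other HMG-box genes higher from 2 to 4, SET complex genes higher from 1 to 2, HMGB1 receptor genes lower from 0 to 1, and LIN28 and let-7 genes higher from 1 to 2.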

Other observations

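Rows named as HMGB1 pseudogenes did not all follow HMGB1, and reads shared with the parent make their values uncertain. HMGB1P5 had 640, 664 and 378 estimated counts in siControl and 427, 405 and 340 in siNONO, with a log2 fold change of -0.54 (SE 0.075) and a call of lower in edgeR. HMGB1P6 was called lower at -0.23 (SE 0.071). Its siControl libraries held 2476, 1977 and 1275 estimated counts, its siNONO libraries held 1546, 1719 and 1674, and its groups overlapped in CPM. HMGB1P3 was called higher, from 10.2, 7.7 and 0.0 counts in siControl to 18.5, 24.1 and 27.0 in siNONO. HMGB1P1 at 0.52 (SE 0.30) and HMGN2P5 at -0.03 (SE 0.27) were not called.

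Genes that overlap HMGA2 on the opposite strand were far lower than HMGA2 itself. RPSAP52 had 109 to 156 counts per library and HMGA2-AS1 had 71.8 to 114, against 8396 to 18819 for HMGA2. The abundance-weighted transcript length of HMGN1 was 1388, 1393 and 1402 bases in siControl and 1345, 1363 and 1347 bases in siNONO. These groups did not overlap. The share of all genes without overlap in length was not counted, so nothing is read from it.

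Over the 6 libraries, the genes whose log2 CPM were most like HMGB2 were LINS1, HOXA9 and GINS1, a subunit of the replicative helicase, with Pearson r from 0.9991 to 0.9995 among 9026 genes. Among those most like HMGA2 were TRAK2 and ARFGEF3, with r of 0.9991 and 0.9988. These values are a description, since the 6 libraries form 2 groups and any gene that differs between the groups correlates with both.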
